A study of Bos taurus with 4 samples.

Results

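The genes described here encode the basement membrane, the collagens, the enzymes that modify and cross-link collagen, the matricellular glycoproteins and the integrins that bind them, in the inner cell mass (ICM) of bovine blastocysts. They were taken by gene symbol from the annotation of the array: symbols that begin with COL and a digit, LAMA, LAMB, LAMC, ITGA, ITGB, LOX or LOXL, THBS or FBLN, together with a short set of named matrix genes such as *NID1*, *HSPG2*, *AGRN*, *SPARC*, *SPP1*, *TNC*, *VTN* and the *P4HA* and *PLOD* enzymes. This gave 88 of the 12545 genes with a named probe. Each gene is represented by its brightest probe, and 68 of the 88 have more than 1 probe, with 254 probes in all. The rule itself reads only the symbols, but the set was chosen with earlier results of these data known. By their first letters, 6 genes came in that are not collagen or integrin chains, for example *ITGB1BP1*, and they are kept apart below. *FN1*, *NID2*, *DAG1*, *COL3A1*, *COL18A1*, *ITGA5*, *ITGA6* and *LAMB2* are not analysed here.

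Bovine embryos were made by in vitro fertilization, with ovaries of mixed breeds from a slaughterhouse and frozen-thawed bull sperm, and all were cultured in synthetic oviduct fluid (SOF) until day 4. Some were then moved to NHSM (naive human stem cell medium) and the others to new SOF, and ICMs were cut out of the blastocysts by hand with needles on day 9. NHSM is based on KO-DMEM with 20% knock-out serum replacement and insulin, and it holds LIF (20 ng/ml), bFGF (8 ng/ml), TGFβ1 (1 ng/ml) and inhibitors of MEK (PD0325901), GSK3 (CHIR99021), PKC (Go6983), JNK (SP600125) and p38 (SB203580). RNA of pools of 11 to 24 ICMs was amplified and compared on 4 two-colour arrays, where a pool from NHSM shared each array with a pool from SOF, with NHSM in Cy3 on arrays 1 and 3 and in Cy5 on arrays 2 and 4. The base medium, the serum replacement, the growth factors and the inhibitors changed together, so their shares in a difference cannot be told apart. A pool holds every cell type that the needle left in the ICM. A lower level in a pool can come from fewer cells of a type or from less RNA per cell, and these cannot be told apart.

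A basement membrane is a thin sheet of matrix under an epithelium. Laminin trimers of 1 alpha, 1 beta and 1 gamma chain form a network on the cell surface, type IV collagen forms another, and nidogen, perlecan and agrin tie them together. In the mammalian blastocyst such a sheet forms between the epiblast and the hypoblast, and the hypoblast and its derivatives are known, in the mouse, as strong producers of laminin, type IV collagen and SPARC. Integrins, pairs of an alpha and a beta chain, hold cells to these proteins.

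Each array gives the log2 ratio of NHSM over SOF for a probe, and the log2 fold change is the fit of limma over the 4 arrays with an effect of the dye. A gene passed at a Benjamini-Hochberg adjusted p under 0.05 over all 12545 genes, and it was called where it also differed by at least 1.5-fold. Levels per pool are normalized log2 intensities and can be compared between pools for 1 gene, not between genes. The signal of control spots in each channel set a floor, and 47 of the 88 genes were above it in all 8 pools, while 6 (*COL4A3*, *COL16A1*, *ITGA4*, *ITGB6*, *ITGB8* and *LAMA2*) were at the floor in all 8 and have no usable fold change. Of all probes, 44.0% to 72.1% exceeded the floor in a pool from NHSM and 48.8% to 67.3% in a pool from SOF. Across all probes the ratios of arrays with the same dye orientation correlated with Pearson's r of 0.56 and 0.59, and those of opposite orientation with r of 0.061 to 0.19.

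Of the 88 genes, 14 were lower in NHSM, 3 were higher and 71 did not pass. The lower genes made up 15.9% of the 88, against 6.91% of all genes, and the higher genes 3.41%, against 6.87%. At 1.5-fold or more, 5 were lower (5.68%, against 1.36% of all genes) and 0 were higher (against 1.23%). The 5 were *THBS4* (probe BTAA008434, chromosome 10), *COL22A1* (BTAA012608, chromosome 14), *LAMB1* (BTAA013421, chromosome 4), *LOXL2* (BTAA013341, chromosome 8) and *NID1* (BTAA018949, chromosome 28), with chromosomes from the RefSeq annotation. Counted in either direction, 2.59% of all genes were called. When arrays were centred on the median instead of normalized by loess, 4 of the 88 were called lower and 2 (*COL1A2* and *ITGB1BP1*) higher, and *NID1* was no longer called, and the split over all genes moved from 154 higher and 171 lower to 229 higher and 133 lower. The median log2 fold change of the 88 genes was -0.04, beside -0.02 over all genes. The NHSM and SOF pools did not overlap for 15 of the 88 genes (17%, against 11.3% of all genes), and 12 of these 15 had passed. Of the 17 passed genes, 16 had the same sign on all 4 arrays, and the exception was *FBLN2*. The test used the same 4 ratios, so this agreement follows in part from passing, and its share over all genes was not counted.

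**Figure D1:**
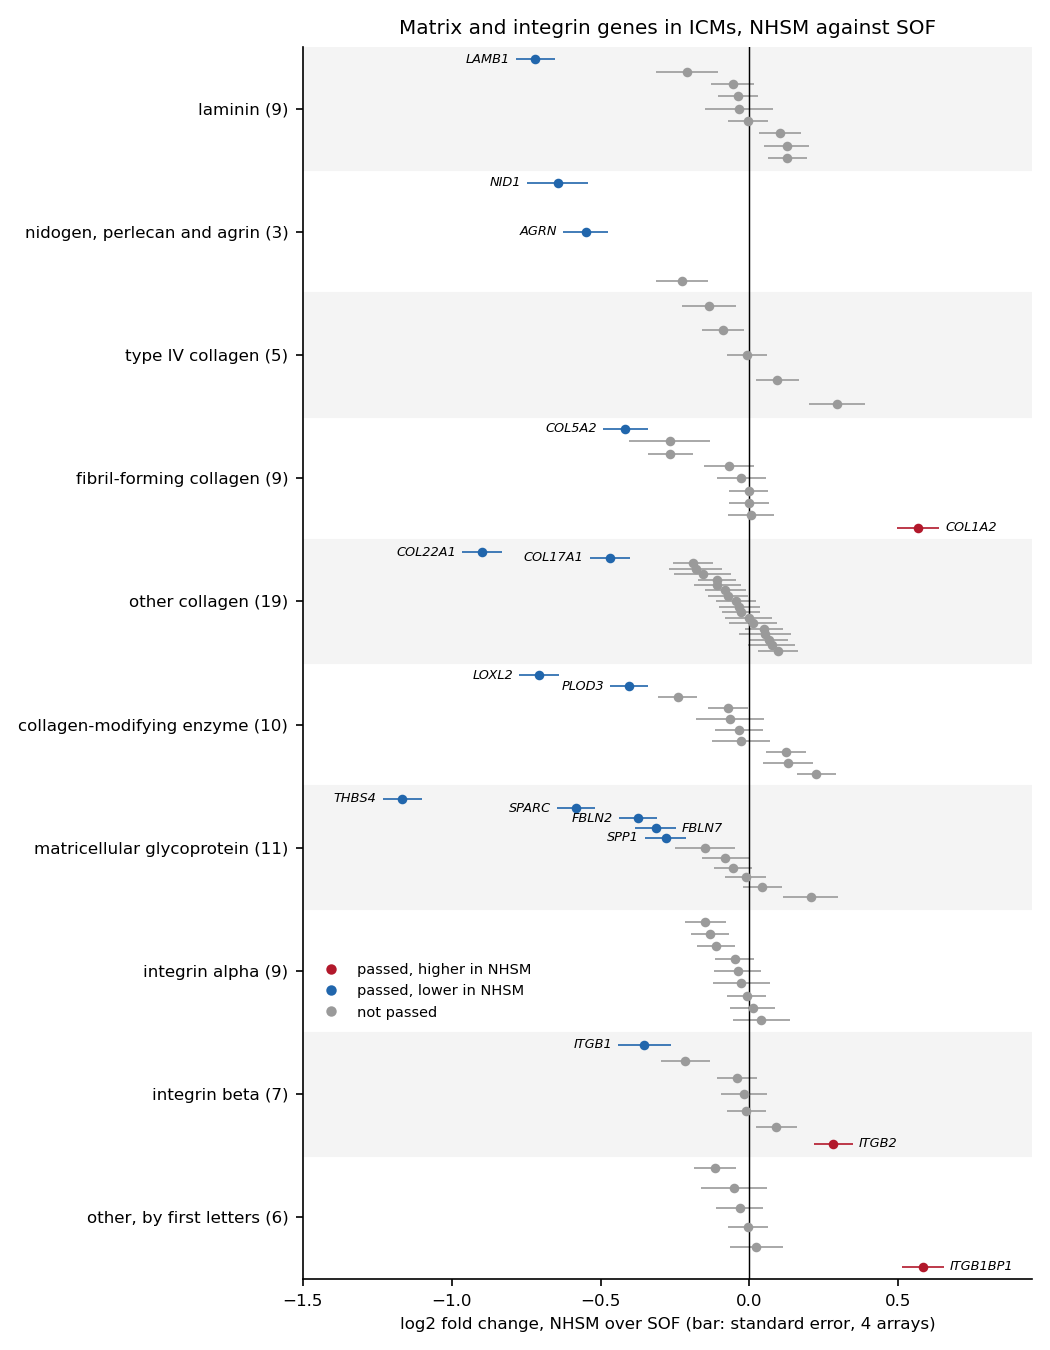
Log2 fold change (NHSM over SOF, horizontal axis) of the 88 genes, ordered within groups of like role (number of genes in brackets), with bars for the standard error of the fit over 4 arrays. The 14 genes that passed as lower (blue) reach -1.17 for *THBS4*, the 3 that passed as higher (red) reach 0.58 for *ITGB1BP1*, and the grey genes that did not pass lie within 0.29 of 0.

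Among 9 laminin chains, *LAMB1* was lower in NHSM (11.1% of the 9, against 6.91% of all genes) and the other 8 did not pass. *LAMB1* encodes the beta 1 chain, which is part of the laminins of early embryos. Its levels were 11.61, 11.61, 11.79 and 11.95 in NHSM pools 1 to 4 and 12.03, 12.62, 12.29 and 12.90 in the SOF pools. All 4 SOF pools were above all 4 NHSM pools. The log2 ratios were -0.42, -1.004, -0.50 and -0.95 on arrays 1 to 4, so that the arrays with NHSM in Cy5 gave the larger differences, and the fitted change was -0.72 (standard error 0.07, adjusted p = 0.00101 from limma), or 1.65-fold lower. The gene has 1 probe. The gamma 1 chain *LAMC1*, which pairs with beta 1, had a log2 fold change of -0.04, and the alpha chains *LAMA1* and *LAMA5* had -0.06 and 0.13. Their probes were dim, with mean log2 intensities of 7.48, 7.39 and 7.19. In a pool, the lowest level above the floor was 6.4 to 7.1, and *LAMA5* exceeded the floor in 7 of 8 pools. A difference could be missed so near the floor. None of these 3 passed, and the difference between *LAMB1* and its partners was not tested.

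The brightest laminin probe without a passed difference belonged to *LAMA3*, an alpha chain of epithelial laminins. Its log2 ratios were -0.77, 0.69, -1.41 and 0.66, and they followed the dye, with NHSM lower on both arrays where it was in Cy3. The fitted change was -0.21 (standard error 0.11, adjusted p = 0.283). Without replicate 1 it passed at -0.37 (adjusted p = 0.0112), and without replicate 3 it was -0.05 (adjusted p = 0.841). *LAMA4*, an alpha chain known from vessel walls, had 0.13 (standard error 0.08).

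The proteins that bridge laminin and type IV collagen were lower for 2 of the 3 genes measured (66.7%, against 6.91% of all genes). *NID1* encodes nidogen 1, which binds both networks. Its NHSM pools had levels of 10.37, 10.51, 10.88 and 10.83 and its SOF pools 11.18, 11.39, 11.10 and 11.50. These ranges do not overlap, although array 3 gave a smaller difference (-0.22) than arrays 1, 2 and 4 (-0.81, -0.88 and -0.67). The fitted change was -0.64 (standard error 0.10, adjusted p = 0.00726), or 1.56-fold lower.

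*AGRN* encodes agrin, a heparan sulfate proteoglycan that binds laminin and dystroglycan. It was lower on each array, with log2 ratios of -0.30, -0.62, -0.59 and -0.69. The levels were 12.07, 11.69, 11.43 and 11.84 in NHSM and 12.37, 12.30, 12.03 and 12.53 in SOF. NHSM pool 1 was above SOF pool 3, so the groups overlap across arrays while every array has NHSM as the lower channel. The fitted change was -0.55 (standard error 0.07, adjusted p = 0.00418), which did not pass when the channels were fitted as separate samples (adjusted p = 0.0928). *HSPG2*, which encodes perlecan, was the third and did not pass (-0.23, standard error 0.09, adjusted p = 0.155). Its ratios of 0.09, -0.76, 0.56 and -0.79 changed sign with the dye, and 1 of its spots was saturated. Without replicate 3 it passed at -0.34 (adjusted p = 0.0182), and without replicate 1 it was -0.11 (adjusted p = 0.476).

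None of the 5 type IV collagen chains passed, beside 6.87% of all genes higher and 6.91% lower. *COL4A5* was the farthest from 0, with a log2 fold change of 0.29 (standard error 0.09, adjusted p = 0.0868). Without replicate 1 it passed as higher in NHSM at 0.42 (adjusted p = 0.00530), and without replicate 3 it was 0.16 (adjusted p = 0.295). The second probe of *COL4A5*, also above the floor in all 8 pools, gave 0.017, with -0.82 on array 1. The mean of its probes gave 0.155 (adjusted p = 0.553). *COL4A4* had -0.01 (standard error 0.07), *COL4A2*, a chain of the form of type IV collagen that most basement membranes hold, had -0.14 (standard error 0.09), and *COL4A1* is not analysed here. *COL4A3* with *COL4A4* on chromosome 2, and *COL4A5* with *COL4A6* on the X chromosome, are head-to-head pairs that share a promoter region in mammals. The signal of *COL4A3* was at the floor, and *COL4A6* had 0.09 (adjusted p = 0.510).

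**Figure D2:**
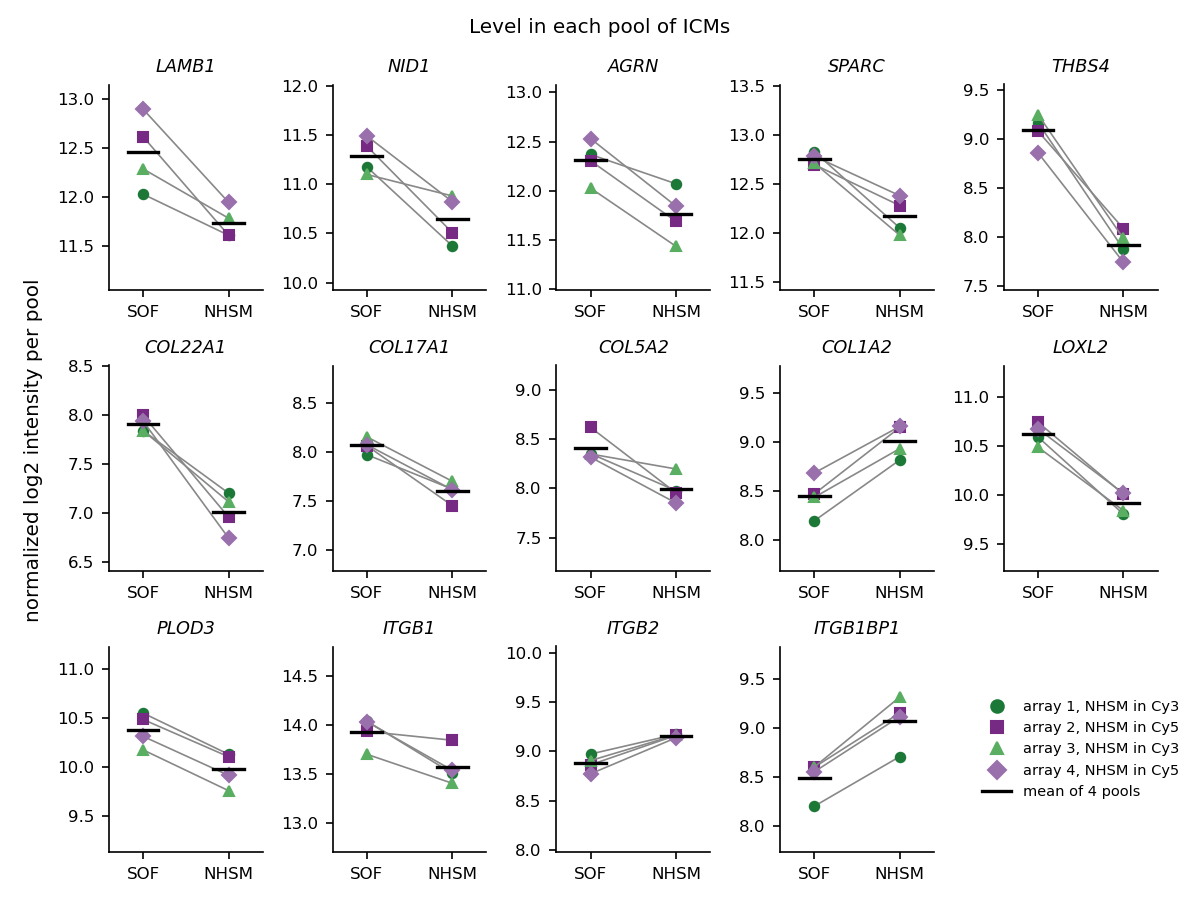
Normalized log2 intensity (vertical axis) in the 4 SOF and 4 NHSM pools for 14 of the 17 genes that passed, with grey lines joining the pools of 1 array, the symbol and colour giving the array and its dye, and black bars giving the mean of 4 pools. The NHSM and SOF points do not overlap for any of these genes except *AGRN* and *ITGB1*.

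The fibril-forming collagens, which make the rope-like fibres of connective tissue, held 1 gene that was higher in NHSM, 1 that was lower and 7 that did not pass. Each direction held 11.1% of these collagens, beside 6.87% of all genes higher and 6.91% lower. *COL1A2*, the alpha 2 chain of type I collagen, had levels of 8.82, 9.15, 8.93 and 9.16 in NHSM and 8.20, 8.47, 8.44 and 8.68 in SOF. All NHSM pools were above all SOF pools. Its log2 ratios were 0.62, 0.68, 0.50 and 0.47 and the fitted change was 0.57 (standard error 0.07, adjusted p = 0.00315), or 1.48-fold higher. The partner chain of type I collagen, *COL1A1*, had a log2 fold change of -0.00 by its brightest probe (standard error 0.06, adjusted p = 0.991), and the difference between the chains was not tested.

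*COL5A2*, a chain of type V collagen, which sits inside type I fibrils and limits their width, was lower in NHSM. Its levels were 7.98, 7.96, 8.20 and 7.85 in NHSM and 8.36, 8.62, 8.35 and 8.32 in SOF. The pools do not overlap, and SOF pool 2 stood above the other 3. The log2 ratios were -0.38, -0.67, -0.15 and -0.47 with a fitted change of -0.42 (standard error 0.07, adjusted p = 0.0113), and without replicate 2 it did not pass (-0.37, adjusted p = 0.0737). *COL11A1*, a chain of the type XI collagen known from cartilage, did not pass (-0.27, standard error 0.14, adjusted p = 0.286). Without replicate 1 it passed (-0.50, adjusted p = 0.00201), and without replicate 3 it was near 0 (-0.04, adjusted p = 0.878). *COL27A1* lay just outside the threshold by its brightest probe (-0.27, adjusted p = 0.0586), with log2 ratios of -0.60, 0.28, -0.78 and 0.04 that turned with the dye. It passed in the authors' ratios, with dim genes left out and without replicate 1.

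Among the 19 other collagens 2 were lower (10.5%, against 6.91% of all genes) and 17 did not pass. *COL22A1*, a collagen known from the junctions of muscle and tendon, had levels of 7.21, 6.96, 7.12 and 6.75 in NHSM and 7.84, 8.00, 7.84 and 7.94 in SOF. The SOF pools lay close together and above every NHSM pool, and 3 of the 4 NHSM pools were above the floor. Its log2 ratios were -0.64, -1.04, -0.73 and -1.19, and the fitted change was -0.90 (standard error 0.07, adjusted p = 5.64e-04), or 1.86-fold lower. *COL17A1* encodes the membrane collagen of hemidesmosomes, the plaques that fix epithelial cells to the basement membrane. Its levels were 7.62, 7.46, 7.70 and 7.62 in NHSM and 7.98, 8.07, 8.16 and 8.08 in SOF, with no overlap. The ratios of *COL17A1* were -0.35, -0.61, -0.45 and -0.46 and the fitted change was -0.47 (standard error 0.07, adjusted p = 0.00517).

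The brightest of the collagens that did not pass in this group were *COL12A1*, which coats fibrils (-0.11, standard error 0.08), and *COL10A1*, known from growth cartilage (-0.08, standard error 0.07). The 17 genes that did not pass lay between -0.19 and 0.10. Of the 19 other collagens, only 6 were above the floor in all 8 pools. *COL25A1* and *COL6A6* were above the floor in 0 NHSM pools and 1 SOF pool each. These 2 genes have no usable fold change.

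The enzymes that modify collagen held 2 lower genes among 10 (20%, against 6.91% of all genes). *LOXL2* encodes a lysyl oxidase that cross-links collagens, type IV collagen among them. Its levels were 9.80, 10.01, 9.84 and 10.02 in NHSM and 10.59, 10.74, 10.49 and 10.67 in SOF. The groups lay apart, with near-equal log2 ratios of -0.79, -0.73, -0.65 and -0.66. The fitted change was -0.71 (standard error 0.07, adjusted p = 0.00117), or 1.63-fold lower. Of the other lysyl oxidases, *LOXL3* lay at the threshold (-0.24, standard error 0.07, adjusted p = 0.0503), *LOX* was above the floor in 2 NHSM pools and 0 SOF pools, and *LOXL1* and *LOXL4* had -0.06 and -0.03.

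*PLOD3* encodes a lysyl hydroxylase that also adds sugars to collagen. Its levels were 10.13, 10.11, 9.76 and 9.92 in NHSM and 10.55, 10.49, 10.18 and 10.32 in SOF, and the groups did not overlap. The log2 ratios of -0.42, -0.38, -0.42 and -0.40 differed less between arrays than those of any other passed gene. The fitted change was -0.40 (standard error 0.06, adjusted p = 0.00690), but *PLOD3* did not pass with separate channels (adjusted p = 0.115) or as the mean of its 5 probes (-0.11, adjusted p = 0.238). The prolyl hydroxylase subunits *P4HA1* and *P4HA2*, which stabilize the collagen helix, had 0.23 (adjusted p = 0.0666) and 0.12 (adjusted p = 0.317). *PLOD2* had log2 ratios of -0.43, 0.76, -0.89 and 0.45 that turned with the dye, and a fitted change of -0.03.

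The matricellular glycoproteins, secreted proteins that tune how cells meet the matrix, held 5 lower genes, 0 higher and 6 not passed of 11. The lower genes were 45.5% of the 11, beside 6.91% of all genes. *THBS4*, a thrombospondin that binds collagens and other matrix proteins, was the member with the largest difference. Its levels were 7.88, 8.09, 7.99 and 7.75 in NHSM and 9.17, 9.08, 9.25 and 8.86 in SOF. The lowest SOF pool was well above the highest NHSM pool. The log2 ratios were -1.29, -0.99, -1.26 and -1.12 and the fitted change was -1.17 (standard error 0.07, adjusted p = 2.72e-04), or 2.24-fold lower, from 1 probe.

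*SPARC* binds collagen and is a known product of the hypoblast lineage in the mouse. The NHSM pools had levels of 12.06, 12.28, 11.98 and 12.39 and the SOF pools 12.83, 12.70, 12.72 and 12.79. The SOF pools were close to each other and all above the NHSM pools. Its log2 ratios of -0.78, -0.42, -0.74 and -0.40 gave a fitted change of -0.58 (standard error 0.06, adjusted p = 0.00187), which lay just short of the 1.5-fold limit of 0.58496 on the log2 scale at -0.58357.

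The other 3 passed glycoproteins, *FBLN2*, *FBLN7* and *SPP1*, had smaller differences. They passed in 6, 6 and 7 of 12 other ways of processing. *FBLN2*, a fibulin of basement membranes, had log2 ratios of 0.10, -0.83, 0.06 and -0.83 and a fitted change of -0.37 (standard error 0.06, adjusted p = 0.00918). Only the arrays with NHSM in Cy5 gave a lower value in NHSM, and without replicate 2 or 4 the change was -0.38 and -0.37 and did not pass (adjusted p = 0.0560 and 0.0565). It did not pass with median centring (-0.29, adjusted p = 0.0781), no dye term (0.343), separate channels (0.234) or a variance trend (0.0947) either. *FBLN7* had -0.31 (standard error 0.07, adjusted p = 0.0220) and kept its size without replicate 2, 3 or 4 (-0.34, -0.28 and -0.29) but did not pass (adjusted p = 0.0910, 0.0543 and 0.136). The test was also missed with median centring (-0.27, adjusted p = 0.0747), separate channels (0.192) or as the mean of its probes (-0.13, adjusted p = 0.199). *SPP1*, osteopontin, a ligand of integrins, had -0.28 (standard error 0.07, adjusted p = 0.0348), with 3 of 4 NHSM pools above the floor, and without replicate 1, 2 or 4 had -0.25, -0.25 and -0.31 and did not pass (adjusted p = 0.0771, 0.212 and 0.111). The same held with no dye term (adjusted p = 0.0582) and separate channels (0.271). Among those that did not pass, *THBS1* had -0.01 (standard error 0.07) and *FBLN5*, a fibulin of elastic fibres, -0.08 (standard error 0.08).

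None of the 9 integrin alpha chains passed, beside 6.87% of all genes higher and 6.91% lower. The 9 lay between -0.15 and 0.04. Only 3 of the 9 were above the floor in all 8 pools, and *ITGA4* was at the floor in all 8. *ITGAD*, at the 0.04 end, was above the floor in 2 of the 8 pools. The brightest were *ITGA7*, a laminin receptor chain (-0.15, standard error 0.07), and *ITGA2B*, known from platelets (-0.11, standard error 0.06). *ITGAV*, the alpha chain of receptors for vitronectin and osteopontin, had -0.01.

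Of 7 integrin beta chains, 1 was lower, 1 was higher and 5 did not pass. Each direction held 14.3% of the 7, beside 6.91% of all genes lower and 6.87% higher. *ITGB1* encodes the beta 1 chain, the partner of most laminin- and collagen-binding alpha chains. Its levels were 13.51, 13.85, 13.41 and 13.54 in NHSM and 14.04, 13.94, 13.71 and 14.04 in SOF. Each array had NHSM as the lower channel (-0.53, -0.09, -0.30 and -0.49), while NHSM pool 2 lay above SOF pool 3. The fitted change was -0.35 (standard error 0.09, adjusted p = 0.0383), and it passed in 6 of 12 other ways of processing. Without replicate 1 or 4 it was -0.29 and -0.25 and did not pass (adjusted p = 0.0641 and 0.229). It did not pass with median centring (-0.30, adjusted p = 0.127), no dye term (0.0688), separate channels (0.169) or as the mean of its probes (-0.19, adjusted p = 0.0795) either.

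*ITGB2*, the beta chain of leukocyte integrins, was the higher one. It had levels of 9.18, 9.16, 9.17 and 9.14 in NHSM and 8.97, 8.86, 8.91 and 8.77 in SOF. The groups did not overlap and the difference was small, with log2 ratios of 0.20, 0.30, 0.26 and 0.37 and a fitted change of 0.28 (standard error 0.06, adjusted p = 0.0277). Without replicate 2, 3 or 4 it was 0.30, 0.27 and 0.27 and did not pass (adjusted p = 0.120, 0.0608 and 0.172). The adjusted p was 0.0527 with no dye term and 0.0580 with separate channels. *ITGB5*, a partner of the alpha V chain, had 0.09 (standard error 0.07), and *ITGB4*, the beta chain of hemidesmosomes, -0.22 (standard error 0.08, adjusted p = 0.145).

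The 6 genes taken in by their first letters were *ITGB1BP1*, *ITGB1BP2*, *ITGB3BP*, *ITGBL1*, *ITGB1BP3* (now *NMRK2*) and *COL4A3BP* (now *CERT1*). *ITGB1BP1*, which encodes a protein that binds the inner end of the beta 1 chain and keeps the integrin inactive, was higher in NHSM. Its levels were 8.70, 9.15, 9.31 and 9.11 in NHSM and 8.20, 8.60, 8.60 and 8.55 in SOF. All NHSM pools were above all SOF pools, with log2 ratios of 0.51, 0.55, 0.71 and 0.56 and a fitted change of 0.58 (standard error 0.07, adjusted p = 0.00249). It did not pass with separate channels (adjusted p = 0.0702). The other 5 did not pass, among them *ITGB3BP*, a protein of the kinetochore (-0.12, standard error 0.07). Without these 6 genes, 82 remained, of which 14 were lower (17.1%, against 6.91% of all genes) and 2 higher (2.44%, against 6.87%).

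A gene with several probes gives several readings of the same RNA. Of the 254 probes, 20 were lower (7.87%, against 4.01% of all 43653 probes) and 11 higher (4.33%, against 4.42%), with p-values adjusted over all probes. Of the 13 passed genes with several probes, 5 had another probe that passed, in each case with the same sign, and 8 had none. *SPARC* was lower by 4 of 6 probes, the dimmer ones at -0.42, -0.54 and -0.51. *COL1A2* was higher by 4 of 6 probes, the dimmer ones at 0.83, 0.71 and 0.36, and *ITGB2* by 3 of 6, the dimmer ones at 0.70 and 0.43. All 3 probes of *COL5A2* were lower, and the dimmer ones differed more (-1.12 and -0.60) than the brightest (-0.42). The second probe of *FBLN2* was lower on all arrays (-0.43, adjusted p = 0.0100 over all probes), unlike its brightest probe.

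The 8 genes without another passed probe were *AGRN*, *COL17A1*, *COL22A1*, *FBLN7*, *ITGB1*, *LOXL2*, *NID1* and *PLOD3*. For *NID1* the second-brightest probe gave -0.40 and did not pass (adjusted p = 0.0629). Its next-brightest probe, also above the floor in all 8 pools, gave -0.16 (adjusted p = 0.386). Dimmer probes with a signal above the floor in all 8 pools gave -0.11 for *AGRN*, -0.09 and 0.02 for *FBLN7*, and -0.15 and -0.06 for *ITGB1*, whose brightest probe did not pass over all probes (adjusted p = 0.0538). The second probe of *COL22A1*, above the floor in 6 of 8 pools, gave -0.05. A further 4 genes passed only through a dimmer probe. *THBS1* was higher by its second probe (0.54, standard error 0.07, adjusted p = 0.00584), with log2 ratios of the same sign on all 4 arrays, while its brightest probe showed no passed difference. *COL27A1* was lower (-0.45, adjusted p = 0.00883), and *COL1A1* (0.28, adjusted p = 0.0455) and *PLOD2* (0.44, adjusted p = 0.0417) were higher by a dim probe each. The files give no probe positions, so differences between the probes of a gene were not related to exons or transcripts.

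**Figure D3:**
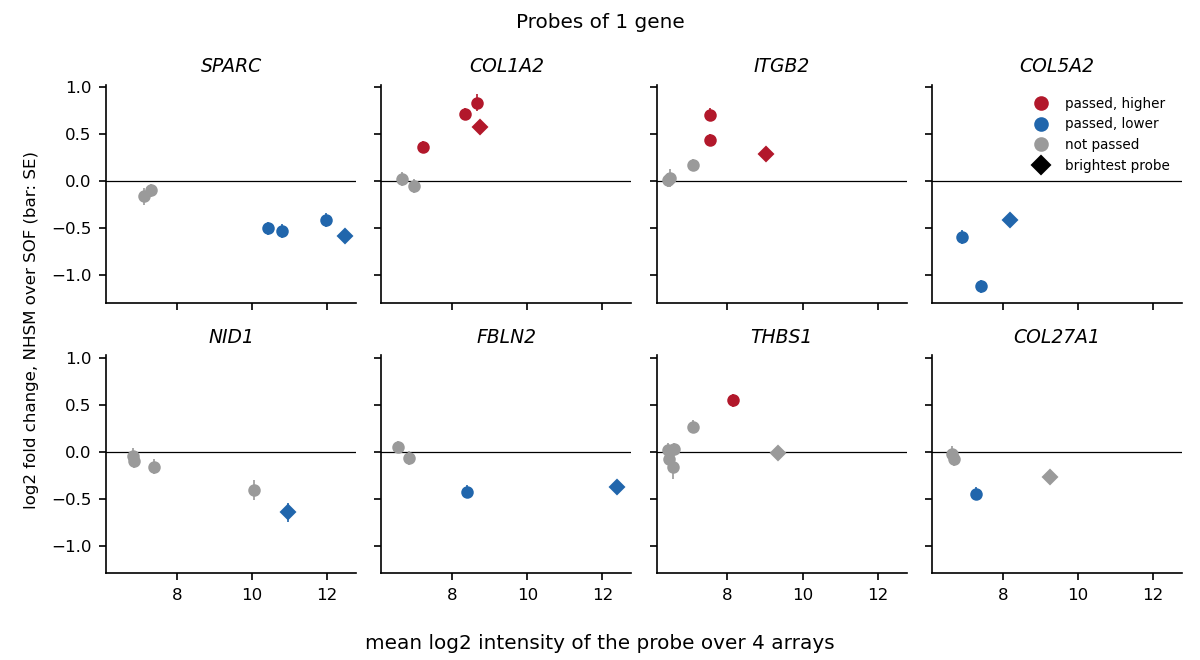
Log2 fold change (vertical axis, bars for the standard error) of every named probe of 8 genes against the mean log2 intensity of the probe over 4 arrays (horizontal axis), with the brightest probe as a diamond and colours for an adjusted p under 0.05 over all 43653 probes. Probes that passed point the same way within each gene, and the dimmest probes of *SPARC*, *COL1A2* and *NID1* lie closer to 0 than their brightest.

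Genes that work with matrix and integrins but were not among the 88 were also read. Of 20 focal adhesion genes measured, which link integrins to actin, 1 was higher (5%, against 6.87% of all genes), 2 were lower (10%, against 6.91%) and 17 did not pass (median -0.07). *NEDD9*, a scaffold protein of integrin signalling, was higher (0.82, standard error 0.08, adjusted p = 0.00114), and the talin gene *TLN2* (-0.65, standard error 0.06, adjusted p = 0.00144) and the caveolin gene *CAV1* (-0.66, standard error 0.07, adjusted p = 0.00155) were lower. Talin 1 (*TLN1*), a talin made by most cells, had -0.01. Among 17 genes of collagen folding and secretion, 2 were higher and 2 lower, 11.8% in each direction beside the same 6.87% and 6.91% (median -0.12). *SAR1B*, a GTPase of the coat of vesicles that leave the endoplasmic reticulum, was higher (0.45, standard error 0.06, adjusted p = 0.00499) and *SEC24D*, a subunit of that coat, was lower (-0.51, standard error 0.07, adjusted p = 0.00505). The peptidyl-prolyl isomerase gene *FKBP14* was higher (0.32, standard error 0.08, adjusted p = 0.0397) and the prolyl hydroxylase subunit gene *P4HA3* was lower (-0.63, standard error 0.09, adjusted p = 0.00566, with 3 of 4 NHSM pools above the floor).

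Of 12 genes of heparan sulfate proteoglycans and their synthesis, 0 passed (median 0.02), beside 6.87% of all genes higher and 6.91% lower. *GPC2*, *GPC4*, *GPC5* and *SDC3* of the list are not analysed here. Among the 12, 2 lay near the threshold, *SDC1* at 0.25 (adjusted p = 0.0530) and *EXT2* at -0.23 (adjusted p = 0.0602). Among 11 further receptors of laminin and collagen, of 15 listed, *CD151*, a tetraspanin that holds laminin-binding integrins, was lower (-0.43, standard error 0.09, adjusted p = 0.0200). This was 9.09% of the 11, beside 6.91% of all genes, and 10 did not pass (median -0.10).

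Markers of the cell types in a blastocyst were read on the same arrays. The epiblast genes *NANOG*, *SOX2* and *PRDM14*, and the hypoblast gene *GATA6*, were above the floor in all 8 pools, as were the trophectoderm genes *GATA3*, *GATA2* and *TFAP2C*. Of 11 hypoblast markers analysed, of 14 listed, *GATA6* was lower in NHSM (-0.44, standard error 0.07, adjusted p = 0.00690). This was 9.09% of the 11, beside 6.91% of all genes. The other 10 did not pass, with *GATA4* at -0.06, *FOXA2* at -0.11, *APOA1* at 0.11 and *SOX17*, above the floor in 3 NHSM and 2 SOF pools, at -0.06. The summed intensity of the hypoblast list was 12972 to 18359 in NHSM and 12896 to 17520 in SOF. For the 5 epiblast markers analysed, of 12 listed, the sum was 4449 to 5596 in NHSM and 5812 to 6452 in SOF. Of these 5, 3 passed as lower (60%, against 6.91% of all genes), *NANOG* (-0.31), *SOX2* (-0.32) and *PRDM14* (-0.32). *SALL4* (-0.04) and *DPPA4* (-0.03) did not pass.

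Of 10 trophectoderm markers analysed, of 14 listed, 2 were lower (20%, against 6.91% of all genes), *TFAP2A* (-0.46) and *GATA2* (-0.35). The other 8 did not pass and lay between -0.26 (*KRT19*) and 0.39 (*PAG2*, adjusted p = 0.0806). The sums of the list were 61302 to 81894 in NHSM and 73171 to 89425 in SOF. The 7 markers of cumulus and granulosa cells analysed, of 10 listed, had sums of 16756 to 31825 in NHSM and 22267 to 48661 in SOF. *FSHR* was higher (0.44), 14.3% of the 7 against 6.87% of all genes. *FST* (-0.51) and *AMH* (-0.32) were lower, 28.6% of the 7 against 6.91% of all genes. The log2 ratios of *AMH* were -0.94, 0.24, -1.11 and 0.55, with NHSM lower only where it was in Cy3. The 2 brightest genes held most of each sum: *NANOG* and *SOX2* 84.9% to 88.7% of the epiblast sum, *APOA1* and *APOE* 70.1% to 80.9% of the hypoblast sum, *TFAP2C* and *GATA2* 62.2% to 81.2% of the trophectoderm sum, and *AMH* and *FST* 94.8% to 98.3% of the cumulus and granulosa sum. The summed levels of the 2 media overlapped for these lists except the epiblast. These ranges take no account of the pairing by array or of the dye. The log2 ratios of *APOE* (-0.66, 0.38, -0.83 and 0.47) and *TFAP2C* (0.62, -0.69, 0.51 and -0.85) changed sign with the dye. The part of these cell types in the differences of the matrix genes was not tested.

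**Figure D4:**
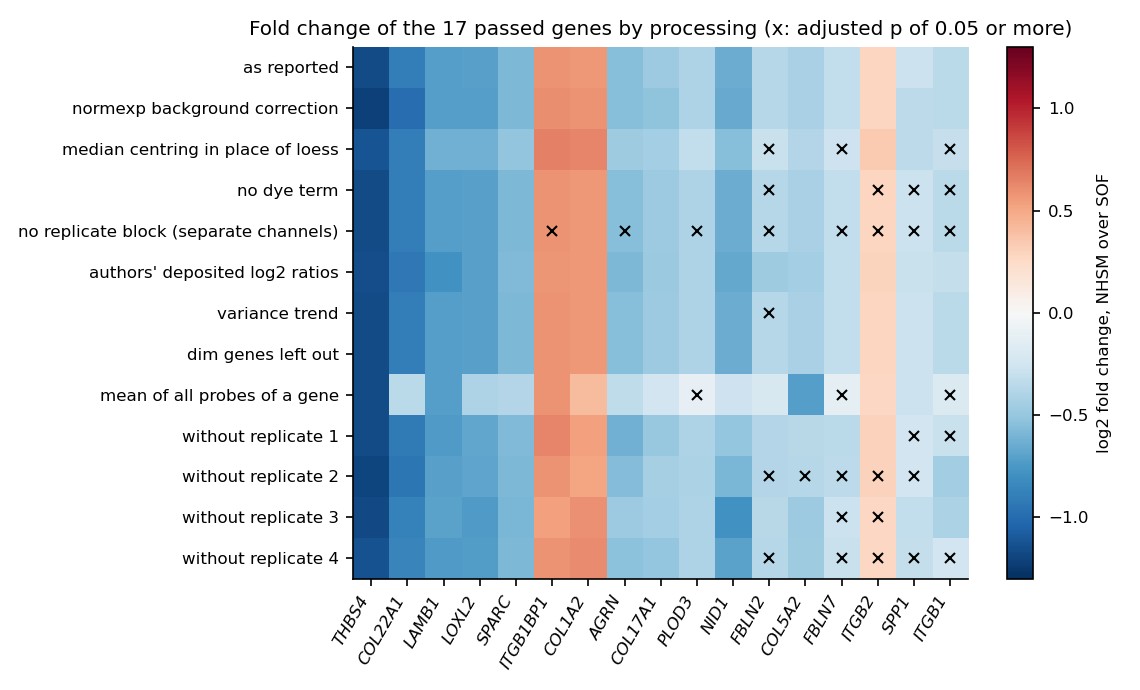
Log2 fold change (colour, NHSM over SOF) of the 17 genes that passed (columns) as reported and under 12 other ways of processing the arrays (rows), with a cross where the adjusted p was 0.05 or more. The columns of *THBS4*, *COL22A1*, *LAMB1*, *LOXL2*, *SPARC*, *COL1A2*, *COL17A1* and *NID1* hold no cross, and no gene changes colour from blue to red or back. The rows for no dye term, separate channels, variance trend and dim genes left out repeat the reported fold changes by construction.

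Across 12 other ways of processing the arrays, 8 of the 17 genes passed in each one: *THBS4*, *COL22A1*, *LAMB1*, *LOXL2*, *SPARC*, *COL17A1* and *NID1* as lower and *COL1A2* as higher in NHSM. The other 9 did not pass in at least 1 of them. When all probes of a gene were averaged, dim ones included, the change fell to -0.35 for *COL22A1*, -0.41 for *LOXL2* and -0.27 for *NID1*, from -0.90, -0.71 and -0.64, and it grew to -0.71 for *COL5A2*.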

How the data were processed

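Total RNA of dissected ICMs was compared on 4 two-colour Agilent bovine arrays. The authors amplified and labelled the RNA, scanned the slides and extracted mean spot intensities with ImaGene. The deposited scanner files hold mean signal and background intensity per spot on a linear scale, not normalized and without spot flags. The authors also deposited log2 ratios of Cy5 over Cy3 after loess and a correction of gene-specific dye bias, and these were used as an alternative only. Each column of that table correlated best with the raw ratio of its own array (r of 0.491 to 0.683 against at most 0.275). The medium in each channel and its dye came from the sample labels. The study describes the pools as independent biological replicates.

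Here, mean intensities without background correction were turned into log2 ratios, loess was run on each array with 1567 control spots at weight 0, and 43653 gene probes were fitted in limma 3.58.1 (R 4.3.3) with a dye term (2 residual and 5.33 prior degrees of freedom). The ratio pairs the NHSM and SOF pools of an array. Of the probes 27952 carry a symbol. The brightest probe per gene was used because probe positions are not in the files. Levels per pool are values after loess and Aquantile. The 2 control probes with most spots (604 and 153) gave the floor of each channel, at the 95th percentile of their signals. Saturated spots numbered 111 to 128 per array in Cy5 and 0 or 1 in Cy3. The fit was also run on data simulated from its own model, which checks the code and not the errors of these arrays. The number of arrays limits the precision, and other results of the paper are not analysed here.

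The genes and lists were chosen with earlier results of these data known, so no p-value was adjusted over a list and no list was tested as a set. Every passed gene was named, with pool values for those called and for up to 2 passed genes per role. Of genes that did not pass, the brightest 1 or 2 per role above the floor in all pools were named. *COL4A2*, *COL4A3*, *COL4A6*, *COL27A1*, *COL25A1*, *COL6A6*, *LAMA1*, *LAMA5*, *LAMC1*, *ITGAV*, *P4HA1* and the remaining *LOX* genes, and *TLN1*, *SDC1* and *EXT2* of the lists, were added after their values were seen. The alternatives were normexp (offset 50), median centring, no dye term, channels fitted as separate samples, the authors' ratios, a variance trend, a filter on dim genes, the mean of all probes, and each replicate left out.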

Additional observations from a re-analysis of the deposited data

Results flagged for a closer look

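The levels of the 4 NHSM pools, the levels of the 4 SOF pools and the 4 log2 ratios of each of 35 named genes were examined for a single value far from the other 3, 105 groups in all. Chance gives about 1 such value in 20 groups, and 3 were found. The level of *COL5A2* in SOF pool 2 was 8.62, and its gap to the nearest pool took 0.882 of the range of the group. For *FBLN5* SOF pool 1 stood above the others at 8.39 (0.842 of the range), and for *ITGB1BP1* SOF pool 1 stood below the others at 8.20 (0.879 of the range). On the array of that pool *ITGB1BP1* still had a log2 ratio of 0.51, close to the 0.55 and 0.56 of arrays 2 and 4.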

How the results depend on the processing

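With the channels fitted as separate samples, with no replicate block in place of the pairing by array, 8 genes were lower and 1 higher in place of 14 and 3. In that fit 5 of the 88 genes and 284 of all genes were called at 1.5-fold. The share of all genes that passed was not counted for the alternatives. With all probes of a gene averaged, 3 of the 88 genes and 144 of all genes were called at 1.5-fold, in place of 5 and 325. The cause of these shifts was not tested. With a replicate left out in turn, 10 to 16 genes were lower, 2 to 4 were higher and 6 or 7 were called, beside 339 to 383 of all genes. *LOXL3* and *P4HA1* passed in the authors' ratios, with a variance trend and with dim genes left out. No gene that passed changed direction under any alternative. With no dye term, separate channels, a variance trend or dim genes left out, the log2 fold change equals that of the main fit by construction. Only the test can differ there, so a direction could not change. For genes with 1 probe the same holds for the mean of all probes. *LOXL3* and *P4HA1* are not among the 35 genes examined above for single far values. Of 420 values of those 35 genes under the alternatives, 33 no longer passed, 4 passed newly and 19 changed sign, all 19 for genes that did not pass. With median centring these were *PLOD2* at 0.019, *COL1A1* at 0.077, *THBS1* at 0.055 and *COL4A4* at 0.0068, and in the authors' ratios *PLOD2* at 0.068, *COL1A1* at 0.0090 and *COL4A4* at 0.0031. With probes averaged they were *PLOD2* at 0.16, *COL1A1* at 0.012, *THBS1* at 0.086 and *LAMA4* at -0.014. With a replicate left out, *PLOD2* ranged from -0.14 to 0.087, *COL1A1* from -0.017 to 0.012, *THBS1* from -0.064 to 0.040, *FBLN5* from -0.17 to 0.0077 and *COL4A4* from -0.037 to 0.022. Of the 88 genes, 35 were above the floor in some pools but not in all 8.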
